A study of Mus musculus with 24 samples.

Results

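The 10 genes described here encode coagulation factors and inhibitors made by the liver, namely F12, F11, F9, F7, F10, F5, F2, Proc, Serpinc1 and Plg. They were chosen by name, with earlier results of these data known. All 10 were found among the 25746 Ensembl genes of the count data and were expressed highly enough to be tested. RNAseq of the liver was done in 24 mice killed at 12 weeks of age, with 6 males (mWT) and 6 females (fWT) of the wildtype and 6 males (mKO) and 6 females (fKO) homozygous for a deletion of the major urinary protein (Mup) gene cluster. The labels give the strain of every mouse as C57/BL6N, which the study's methods write C57BL/6N, all mice ate standard chow, and each library is 1 liver of 1 animal. The deletion was made with CRISPR/Cas9, and all KO mice go back to a single male founder. Effects of the deletion cannot be told apart from those of other variants of that founder that were inherited together with it. The KO and WT mice came from a heterozygous intercross. The study compared KO with WT mice within each sex, and the groups allow the sexes to be compared within each genotype as well.

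In blood clotting, proteases circulate as inactive precursors that activate each other in sequence. Factor VII together with tissue factor starts the extrinsic pathway, factors XII, XI and IX form the contact and intrinsic pathway, and both lead to factor X, which with its cofactor factor V turns prothrombin into thrombin. Antithrombin and activated protein C limit the process, and plasminogen is the precursor of plasmin, which dissolves the fibrin clot. Hepatocytes are the main source of these proteins in plasma, and F2, F7, F9, F10 and Proc encode proteins that need vitamin K for their maturation. Many genes of the mouse liver, the Mup genes among them, are expressed at different levels in males and females.

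The total count per library ranged from 15361901 to 26261394. Reads of the 22 Mup genes summed to 17028 to 37393 CPM (counts scaled to a common library size) in mWT and to 3395 to 5259 CPM in fWT mice. In KO mice the sum was at most 0.457 CPM, with any Mup read in 1 mKO and 2 fKO libraries. Reads of 4 Y-linked genes summed to 2723 to 5578 counts in the male and to 0 to 2 counts in the female libraries, as labelled. All 7 hepatocyte markers were found in every group, with sums between 100456 and 154327 CPM that overlapped among the 4 groups. The Spearman correlation of each library with the median of its group was at least 0.9888. The CPM values given here were scaled with TMM factors over the 12330 genes tested.

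All 10 genes lay in the upper part of hepatic expression. Compared per length, as RPKM (CPM divided by the length of the principal transcript in kilobases), the level over all 24 livers was highest for Plg with 1059.5, followed by F2 with 755, Serpinc1 with 398 and Proc with 193. F10 with 131, F12 with 125, F9 with 104 and F5 with 103 formed a middle group, and F7 with 52.5 and F11 with 46.6 were lowest. Among 12167 genes with a known length, these levels lay between the percentile of 90.3 for F11 and that of 99.5 for Plg. Plg, F2 and Serpinc1 held the first 3 places in each of the 4 groups. The places of F10, F12 and Proc depended on the length used, since Proc moved from the fourth to the fifth place in mWT and to the sixth in fKO mice when all annotated exons were counted. F7 was below F11 in mWT mice, with 42.7 against 50, and above it in fKO mice, with 62.1 against 45.5 RPKM. Counted as CPM without regard to length, the 10 genes summed to 7212 to 8080 CPM in mWT, 7146 to 8588 CPM in mKO, 8680 to 9503 CPM in fWT and 8720.4 to 9805 CPM in fKO mice. Plg and Serpinc1 contributed most of this sum.

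**Figure D1:**
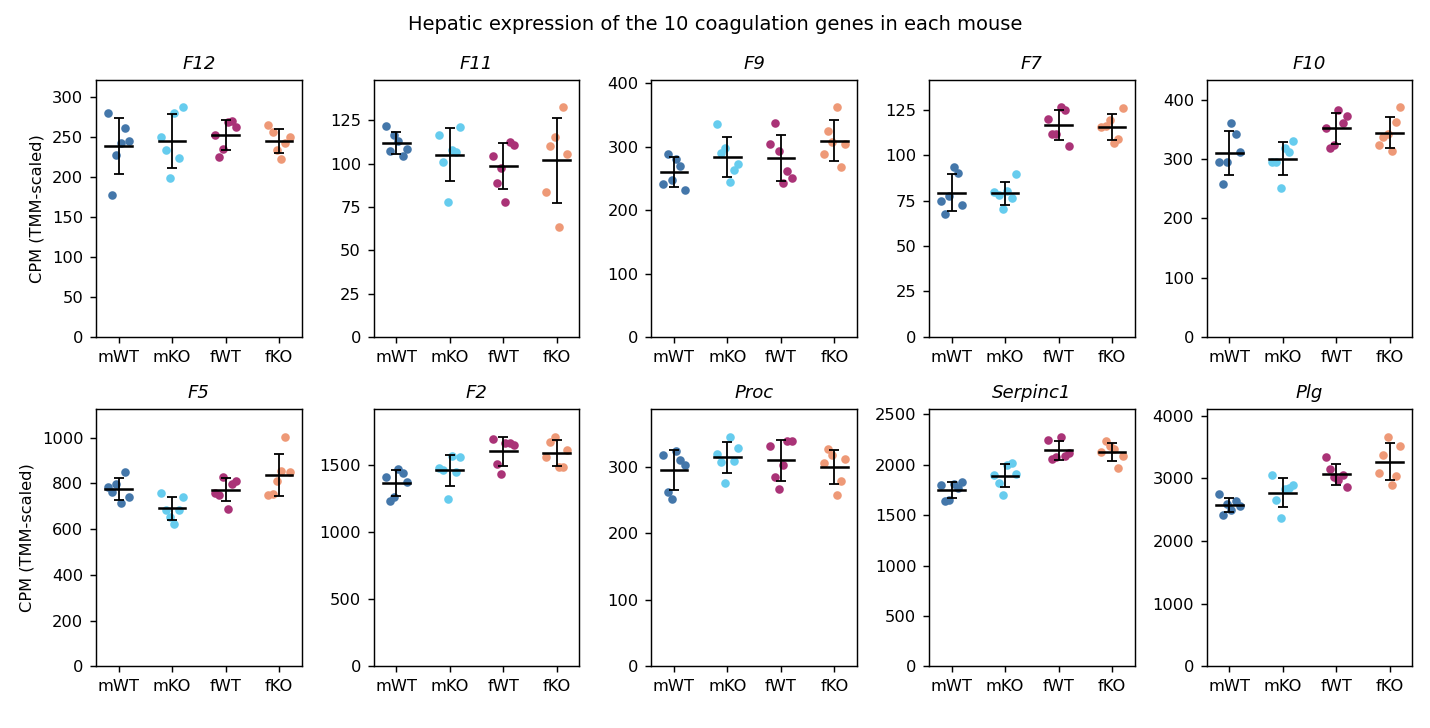
CPM (TMM-scaled, linear axes from 0) of the 10 genes in each of the 24 mice, as 1 point per mouse, with the mean and standard deviation of each group (n = 6) in black. F7 lies at 67.6 to 93.7 CPM in the 12 males and at 105 to 126.3 CPM in the 12 females, whereas the groups of F12, F11, F9 and Proc overlap.

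The largest sex difference among the 10 was that of F7 (ENSMUSG00000031443), which encodes factor VII, the protease that binds tissue factor to start clotting. In GRCm38 it lies on the forward strand of chromosome 8 from 13026034 to 13035809. The gene of factor X, F10 (ENSMUSG00000031444, chromosome 8 from 13037308 to 13056676, forward strand), follows 1498 bp after its end. The 250 bases before the start of both genes are shown because they are neighbours of which F7 passed the test between the sexes and F10 did not. They were taken from RefSeq for GRCm38.p6, at chr8:13025784-13026033 for F7 and chr8:13037058-13037307 for F10. Capitals mark the only match to any of the 3 motifs of liver transcription factors given after the sequences.
F7: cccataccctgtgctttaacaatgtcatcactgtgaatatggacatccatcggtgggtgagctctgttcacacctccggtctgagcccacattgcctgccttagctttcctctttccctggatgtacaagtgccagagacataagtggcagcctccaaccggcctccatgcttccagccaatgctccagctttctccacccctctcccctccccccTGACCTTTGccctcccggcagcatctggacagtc
F10: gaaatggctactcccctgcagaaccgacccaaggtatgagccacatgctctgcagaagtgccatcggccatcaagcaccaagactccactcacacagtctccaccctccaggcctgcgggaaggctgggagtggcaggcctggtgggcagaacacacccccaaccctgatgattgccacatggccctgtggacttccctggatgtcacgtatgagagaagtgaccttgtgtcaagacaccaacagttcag
The motifs were searched on both strands as CAAAGNNCA for HNF4, TTCNNNGAA for STAT5 and TTGCNNAA for C/EBP. F7 held 1 HNF4 match, TGACCTTTG on the opposite strand, at −34 to −26 from the start site, and the motif occurred in 5.49% of all 32851 promoters of the same length. F10 held no match to the 3 motifs in this window. Promoters were found for 8 of the 10 genes. Outside F7, the matches were TTCCCAGAA for STAT5, TGCACTTTG for HNF4 and TTGCACAA for C/EBP in F9, and TTAAGCAA for C/EBP in F11, with STAT5 matches in 7.02% and C/EBP matches in 9.56% of all promoters. The matches did not overlap each other. They describe letters in the windows and were not related to expression.

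F7 expression was lower in males than in females of both genotypes. It was at 67.6 to 93.7 CPM (median 76.2) in mWT, 70.1 to 89.6 CPM (median 79) in mKO, 105 to 126 CPM (median 116) in fWT and 107 to 126 CPM (median 116) in fKO mice. All 12 males were below all 12 females, and within each sex the KO and WT mice overlapped. The log2 fold change of mWT against fWT mice was −0.55 (SE 0.0756, adjusted p = 6.06e-06). Here and below, SE is the standard error, and adjusted p-values come from quasi-likelihood tests in edgeR, corrected by the Benjamini-Hochberg method over all 12330 genes. Expression in mWT was thus 0.681 times (95% interval 0.611 to 0.758) that in fWT mice. For mKO against fKO mice the log2 fold change was −0.55 (SE 0.0756, adjusted p = 8.39e-06), or 0.685 times (95% interval 0.615 to 0.763) the female level. For the neighbouring F10, values were 258 to 360.5 CPM (median 304) in mWT, 251 to 330.4 CPM (median 304) in mKO, 319 to 383 CPM (median 357) in fWT and 314 to 387.5 CPM (median 340.5) in fKO mice, and males and females overlapped in both genotypes. For F10 the log2 fold change was −0.18 (SE 0.0802, adjusted p = 0.125) in WT and −0.20 (SE 0.0802, adjusted p = 0.101) in KO mice, short of the threshold in both. In each genotype, 4 of 6 males were below all females for F10. The two-sided exact permutation test over 6 against 6 mice gave p = 0.0519 in WT and 0.013 in KO mice (both unadjusted). A sex difference of F10 smaller than that of F7 is thus not excluded. Within each library the ratio of F7 to F10 reads does not depend on scaling. This ratio ranged from 0.233 to 0.263 in mWT and 0.245 to 0.28 in mKO mice, and from 0.282 to 0.35 in fWT and 0.301 to 0.357 in fKO mice, without overlap between the sexes. From the CPM of a single gene in bulk liver RNA, fewer hepatocytes and less RNA per hepatocyte cannot be told apart. The share of hepatocytes was not tested.

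Of the 10 genes, 4 were lower in mWT than in fWT mice with an adjusted p under 0.05, and 0 were higher. Among all genes tested, 17.3% differed between the sexes in WT mice, with 8.81% lower in males. The median log2 fold change of the 10 genes was −0.15, against 0.00 over all genes tested. Among the 1407 genes with a mean CPM at or above that of the lowest of the 10, 27.3% differed, and 174 of the 1407 were lower in males. In KO mice 3 of the 10 genes were lower in males and 0 were higher, against 14.4% of all genes in either direction and 7.13% lower in males. Of the same 1407 genes, 24% differed in KO mice, and 153 were lower in males. Values of all 6 males lay below those of all 6 females for 3 of the 10 genes in WT mice (F7, Serpinc1 and Plg), where this held for 4.05% of all genes, and for F7 alone in KO mice, where it held for 3.41%. F7 and Plg had an adjusted p under 0.05 in both genotypes. Because the 10 genes were chosen with earlier results of these data known, these shares describe them and are no test of the set.

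**Figure D2:**
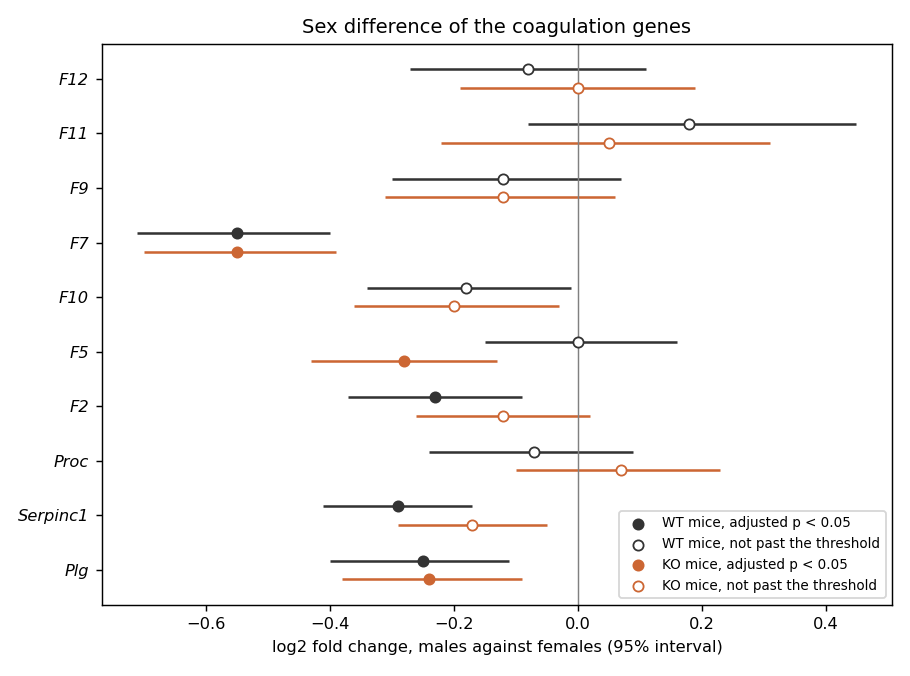
Log2 fold change of males against females with its 95% interval for the 10 genes in WT (dark) and KO mice (orange), 6 against 6 mice each. Filled points have an adjusted p under 0.05. F7 lies farthest to the left at −0.55 in both genotypes, and F5 is at 0.00 in WT and −0.28 in KO mice.

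Serpinc1 (ENSMUSG00000026715, chromosome 1 from 160978585 to 161005863) encodes antithrombin, the serpin that inhibits thrombin and factor Xa. It was expressed at 1644 to 1829.8 CPM (median 1785) in mWT, 1701 to 2016 CPM (median 1905) in mKO, 2057 to 2278 CPM (median 2103) in fWT and 1972.5 to 2237 CPM (median 2145) in fKO mice. In WT mice all males were below all females, with a log2 fold change of −0.29 (SE 0.0593, adjusted p = 0.000969), while mKO and fKO mice overlapped and the log2 fold change was −0.17 (SE 0.0592, adjusted p = 0.0538). This second value passed the threshold without mKO mouse 5 (adjusted p = 0.0481), without fKO mouse 5 (0.0359), with non-robust dispersions (0.0475) and with DESeq2 (0.00456). With a correction for transcript GC content, chosen after seeing the data, the log2 fold change in KO mice was −0.11 (adjusted p = 0.257). The exact permutation test of mKO against fKO mice gave p = 0.00649 (two-sided, 6 against 6, unadjusted). The sex difference of Serpinc1 was not shown to differ between genotypes (adjusted p = 0.888 for the interaction). The annotation places Gm37729 on the same strand as Serpinc1 and Gm37072 and Zbtb37 on the other, and the strand setting of the counting is not given in the sources used here, so some of its reads may belong to them.

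Plg (ENSMUSG00000059481, chromosome 17 from 12378608 to 12419385) encodes plasminogen. Its values were 2411.5 to 2751 CPM (median 2578) in mWT, 2375 to 3054 CPM (median 2836) in mKO, 2858 to 3346 CPM (median 3041) in fWT and 2899.6 to 3665 CPM (median 3237) in fKO mice. The log2 fold change of males against females was −0.25 (SE 0.071, adjusted p = 0.0145) in WT mice, without overlap between the groups. In KO mice, 5 of 6 males were below all females and the log2 fold change was −0.24 (SE 0.071, adjusted p = 0.0248). The call in KO mice was lost without mKO mouse 2, mKO mouse 3, fKO mouse 3 or fKO mouse 6 (adjusted p = 0.0534, 0.0646, 0.0689 and 0.0501) and when only the 12 KO mice were fitted (0.0749). Two-sided exact permutation tests over 6 against 6 mice gave p = 0.00216 in WT mice, the smallest that this design allows, and p = 0.00866 in KO mice (both unadjusted). Slc22a3, on the opposite strand, overlaps Plg.

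F2 (ENSMUSG00000027249, chromosome 2 from 91625320 to 91636414) encodes prothrombin, the precursor of thrombin. It was expressed at 1232 to 1466 CPM (median 1390.2) in mWT, 1245 to 1562 CPM (median 1469.5) in mKO, 1429 to 1689 CPM (median 1651.5) in fWT and 1479.9 to 1707 CPM (median 1584) in fKO mice. In WT mice 4 of 6 males were below all females, with a log2 fold change of −0.23 (SE 0.0691, adjusted p = 0.022). The call was lost without mWT mouse 2 (adjusted p = 0.0521), mWT mouse 3 (0.0561) or fWT mouse 1 (0.0522), and the two-sided exact permutation test over 6 against 6 mice gave p = 0.00649 (unadjusted). In KO mice the log2 fold change was −0.12 (SE 0.0691, adjusted p = 0.262), with a 95% interval of −0.26 to 0.02. The adjusted p of the interaction was 0.919.

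F5 (ENSMUSG00000026579, chromosome 1 from 164151838 to 164220277) encodes factor V, the cofactor of factor Xa. Values were 715 to 848 CPM (median 773) in mWT, 620.2 to 757 CPM (median 684) in mKO, 687.5 to 827 CPM (median 778) in fWT and 749 to 1004 CPM (median 829) in fKO mice. The lowest values were found in mKO and the highest in fKO mice, and 5 of 6 mKO mice were below all fKO mice. The log2 fold change of males against females was −0.28 (SE 0.0736, adjusted p = 0.0108) in KO mice. In WT mice it was 0.00 (SE 0.0735, 95% interval −0.15 to 0.16, adjusted p = 0.976). The difference between these values, which equals the interaction of genotype and sex, was −0.28 on the log2 scale (SE 0.104, 95% interval −0.50 to −0.07) with an unadjusted p of 0.0118 and an adjusted p of 0.816 from edgeR. The sex difference of F5 is therefore not shown to depend on the genotype.

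The genes of the contact and intrinsic pathway and Proc showed no sex difference past the threshold. F12 (ENSMUSG00000021492, chromosome 13 from 55417958 to 55426793), which encodes the contact factor XII, ranged from 177 to 287 CPM over the 24 mice. Its log2 fold change of males against females was −0.08 (95% interval −0.27 to 0.11) in WT and 0.00 (−0.19 to 0.19) in KO mice. F11 (ENSMUSG00000031645, chromosome 8 from 45241174 to 45262031), the gene of factor XI, ranged from 63.4 to 132.5 CPM. It was the most variable of the 10 within a group, with a coefficient of variation of 24.1% in fKO against 5.67% in mWT mice. For F11 the log2 fold change of males against females was 0.18 (−0.08 to 0.45) in WT and 0.05 (−0.22 to 0.31) in KO mice. F9 (ENSMUSG00000031138, X chromosome from 59999464 to 60030759), the gene of factor IX, ranged from 232 to 362 CPM with log2 fold changes of −0.12 (−0.30 to 0.07) and −0.12 (−0.31 to 0.06). Proc (ENSMUSG00000024386, chromosome 18 from 32123126 to 32139570), the gene of protein C, ranged from 252 to 345 CPM and gave −0.07 (−0.24 to 0.09) and 0.07 (−0.10 to 0.23). Of the 5 vitamin K-dependent genes, F7 and F2 were lower in mWT than in fWT mice, whereas F9, F10 and Proc did not pass the test.

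Markers of liver cell types, those of hepatocytes included, were also compared between the sexes. Of 37 tested marker genes, 9 were lower and 1 was higher in mWT than in fWT mice, or 27% against 17.3% of all genes. In KO mice 4 were lower and 7 higher in males, or 29.7% against 14.4% of all genes. The sum of 6 endothelial markers ranged from 123 to 154 CPM in males and from 128 to 187 CPM in females. For 6 Kupffer cell markers the sum was 64.9 to 183 CPM in males and 102 to 225 CPM in females, and for 6 stellate cell markers 173 to 316 CPM and 222 to 342 CPM. The 5 erythroid markers summed to 149 to 259.7 CPM in males and 40.5 to 67.8 CPM in females. This gap was mainly that of Alas2, an enzyme of haem synthesis, which was at 112.5 to 152 CPM in mWT, 101 to 153 CPM in mKO, 8.48 to 16.4 CPM in fWT and 9.52 to 19.3 CPM in fKO mice. Of the 4 globin genes, Hbb-bs was highest, at 25.3 to 53.4 CPM in mWT and 22.4 to 35.7 CPM in fWT mice. In KO mice the sexes did not overlap for Hbb-bs, at 36.3 to 64.7 CPM in mKO and 21.8 to 30.9 CPM in fKO mice. Nor did they for Hbb-bt, at 7.48 to 14.9 CPM in mKO and 3.63 to 5.25 CPM in fKO mice. Hba-a1 and Hba-a2 had higher means in mKO than in fKO mice, with overlap. None of the markers in these 4 lists was at 0 throughout a group. Lists of cholangiocyte, lymphocyte, platelet and pancreatic acinar markers summed to at most 56.3 CPM in any library, and 2 to 4 of the 5 acinar markers found in the files were at 0 in each group. Their part in the sex differences given above was not tested.

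With regard to the deletion itself, none of the 10 genes passed the test between KO and WT mice. In males, 0 of the 10 genes had an adjusted p under 0.05, where 0.211% of all genes tested did, and 0 had an unadjusted p under 0.01, the cut-off of the study, where 3.52% did. At an unadjusted p under 0.05 there was 1 of the 10 genes, F5, against 10.6% of all genes. In females, 0 of the 10 genes had an adjusted p under 0.05 (0.0892% of all genes), 0 had an unadjusted p under 0.01 (0.876%) and 0 an unadjusted p under 0.05 (4.87%) in edgeR. DESeq2 called 0 of the 10 genes in either sex. KO and WT mice overlapped for each of the 10 genes in both sexes, where 1.09% of all genes in males and 0.349% in females did not overlap. Their log2 fold changes lay between −0.17 and 0.13 in males, with a median of 0.07, and between −0.05 and 0.13 in females, with a median of −0.01. The comparisons share groups with the sex comparisons above, so the mWT mice, for instance, enter both.

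**Figure D3:**
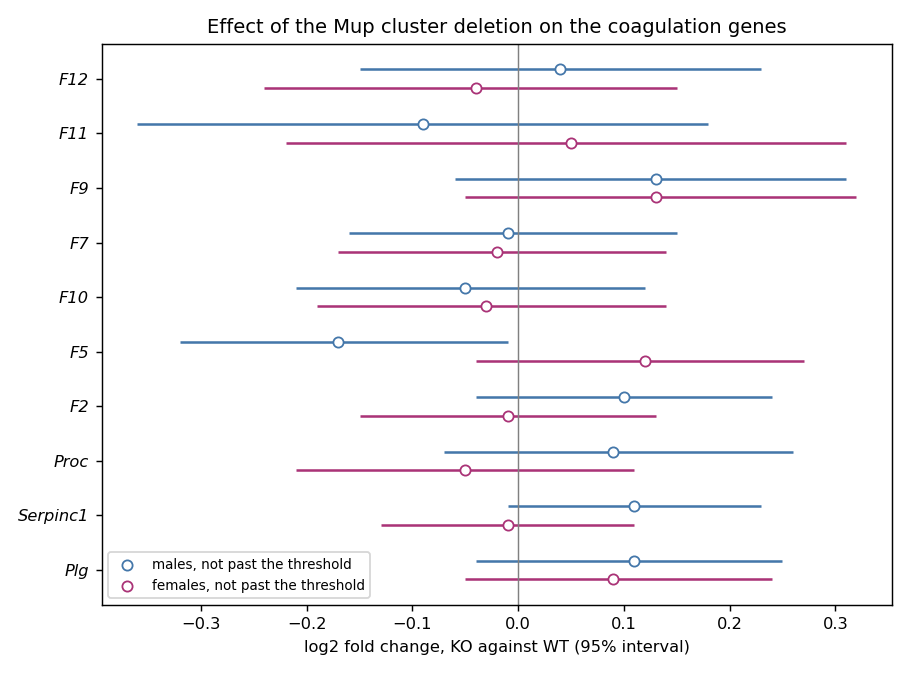
Log2 fold change of KO against WT mice with its 95% interval for the 10 genes in males (blue) and females (purple), 6 against 6 mice each. Open points did not pass an adjusted p of 0.05. All 20 lie between −0.17 and 0.13, and the interval of F5 in males, −0.32 to −0.01, is the only one that leaves out 0.

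The 95% intervals of the KO effect were widest for F11. For F7 they ran from 0.894 to 1.11 times the WT level in males and from 0.889 to 1.1 times in females. For Serpinc1 the level in mKO mice was 1.08 times (95% interval 0.993 to 1.18) that in mWT mice and 4 of 6 mKO mice were above all mWT mice, with an unadjusted p of 0.072 and an adjusted p of 0.525 in edgeR and a two-sided exact permutation p of 0.0455 (unadjusted). In females the interval of Serpinc1 was 0.912 to 1.08 times the WT level. Plg gave 1.08 times (95% interval 0.974 to 1.19) the WT level in males and 1.07 times (95% interval 0.963 to 1.18) in females. F2 gave 1.07 times (95% interval 0.969 to 1.18) in males and 0.992 times (95% interval 0.899 to 1.09) in females. For F11 they were 0.781 to 1.13 times in males and 0.86 to 1.24 times in females. For F12, F10 and Proc the intervals in both sexes lay between 0.85 and 1.19 times the WT level.

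F5 in males and F9 in the average of both sexes had an unadjusted p under 0.05 between the genotypes. For F5 the log2 fold change was −0.17 in males (SE 0.0736, unadjusted p = 0.0325, adjusted p = 0.414 in edgeR), with 4 of 6 mKO mice below all mWT mice (two-sided exact permutation p = 0.0152, unadjusted). In females it was 0.12 (SE 0.0735, adjusted p = 0.929). Of the 10 genes, 0 had an adjusted p under 0.05 for the interaction (0.00811% of all genes) and 0 an unadjusted p under 0.01 (1.16%). F5 alone had an unadjusted p under 0.05, against 5.96% of all genes. Over the alternatives tried, its interaction ranged from −0.31 to −0.22 with adjusted p between 0.388 and 0.967, and the unadjusted p was under 0.01 in 7 of 34 alternatives, DESeq2 (0.0046) among them. F9 expression was 260 ± 23 CPM (SD, n = 6) in mWT and 284 ± 31.8 CPM (SD, n = 6) in mKO mice. Female values were 282 ± 36.4 CPM (SD, n = 6) in fWT and 309 ± 32.3 CPM (SD, n = 6) in fKO mice. Averaged over the sexes, its log2 fold change was 0.13 (SE 0.0635, unadjusted p = 0.0477, adjusted p = 0.513 in edgeR). F9 was the only one of the 10 genes with an unadjusted p under 0.05 in this average, where 9.57% of all genes had one, and 0 of the 10 had an adjusted p under 0.05, where 0.17% did. With the GC correction, the value for F9 was 0.16 (unadjusted p = 0.000836, adjusted p = 0.114 in edgeR).

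The other genes of clotting and fibrinolysis were taken from a list of 42, also chosen with earlier results of these data known. Of these, 33 were expressed highly enough to be tested. Between KO and WT mice, 0 of the 33 had an adjusted p under 0.05 in males, in females, in their average or in the interaction. With an unadjusted p under 0.05 in edgeR there were 9 of the 33 in males (10.6% of all genes) and 7 in females (4.87%). There were 10 in the average of both sexes (9.57%) and 2 in the interaction (5.96%). At an unadjusted p under 0.01, the cut-off of the study, there were 3 of the 33 in males (3.52% of all genes) and 0 in females (0.876%). At this cut-off 5 passed in the average of both sexes (349 of all 12330 genes) and 1 in the interaction (1.16%). The smallest p in males belonged to Fgg and Fga, which encode the gamma and alpha chains of fibrinogen. Fgg was at 2589.9 to 3652 CPM (median 3043) in mWT and 3402 to 4928 CPM (median 3719) in mKO mice, and the log2 difference was 0.35 (SE 0.109, unadjusted p = 0.00348, adjusted p = 0.201 in edgeR). Fga was at 2726 to 4126 CPM (median 3130.2) in mWT and 3386 to 4925 CPM (median 4041.5) in mKO mice, with a log2 fold change of 0.35 (adjusted p = 0.217). Both genes overlapped between the genotypes. The other gene with an unadjusted p under 0.01 in males was Tfpi2, with a log2 fold change of 0.41 (unadjusted p = 0.00944, adjusted p = 0.281 in edgeR). Fgb, the gene of the third fibrinogen chain, gave 0.24 in males (unadjusted p = 0.0282, adjusted p = 0.392 in edgeR). In females the log2 fold changes were 0.23 for Fgg, 0.23 for Fga and 0.22 for Fgb, each with an adjusted p of 0.929. Averaged over the sexes, Fgg differed by 0.29 (SE 0.077, adjusted p = 0.201) and Fga by 0.29 (SE 0.0798, adjusted p = 0.222). For the interaction, the smallest p belonged to Pros1 at −0.31 and Lman1 at −0.25 (adjusted p = 0.816 and 0.823). In females the smallest p belonged to Serping1, the gene of C1 inhibitor, at 0.20 and to Serpine2, which encodes the thrombin inhibitor protease nexin-1, at 0.65, both with an adjusted p of 0.929.

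Between the sexes, 11 of the 33 genes passed the threshold in WT mice, 5 higher and 6 lower in males, against 17.3% of all genes. Their median log2 fold change was −0.14. In KO mice 8 passed, 3 higher and 5 lower in males, against 14.4% of all genes, and the median was −0.15. F2r, which encodes a thrombin receptor, was at 28.2 to 61.8 CPM (median 45.4) in mWT and 8.89 to 12.2 CPM (median 10.8) in fWT mice, a log2 difference of 2.11 (SE 0.151, adjusted p = 1.28e-10), and differed by 1.90 (SE 0.151, adjusted p = 1.09e-09) in KO mice. Serpine2 was at 6.69 to 12.2 CPM (median 9.18) in mWT and 1.46 to 2.27 CPM (median 1.67) in fWT mice, with log2 fold changes of 2.32 (SE 0.26, adjusted p = 5.63e-07) in WT and 2.11 (SE 0.246, adjusted p = 1.09e-06) in KO mice. These genes were thus higher in males, opposite to the called genes among the 10. The vitamin K epoxide reductase Vkorc1 was lower in mWT than in fWT mice at −0.24 (SE 0.0716, adjusted p = 0.023), and its relative Vkorc1l1 was higher at 0.35 (SE 0.0896, adjusted p = 0.00798). Lman1, the gene of a cargo receptor through which factors V and VIII leave the endoplasmic reticulum, was higher in mWT mice at 0.29 (SE 0.0762, adjusted p = 0.0078). Its partner Mcfd2 was lower at −0.20 (SE 0.0666, adjusted p = 0.0412). Pros1, the gene of the protein C cofactor protein S, was higher at 0.21 (SE 0.0713, adjusted p = 0.0381).

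Habp2 and Kng2 were lower in males of both genotypes. Habp2, whose product is a protease able to activate factor VII, gave −0.39 (SE 0.0692, adjusted p = 0.000211) in WT and −0.30 (SE 0.0691, adjusted p = 0.0035) in KO mice. Kng2, a kininogen gene, gave −0.37 (SE 0.0825, adjusted p = 0.00219) and −0.40 (SE 0.0825, adjusted p = 0.00122). Reads of Kng2 and its close paralog Kng1 may have been split between them by the counting, so both values are uncertain. Kng1 was lower in mKO than in fKO mice at −0.27 (SE 0.0693, adjusted p = 0.00738). F13b, the carrier subunit of factor XIII, was lower in males at −0.22 in WT and −0.30 in KO mice (adjusted p = 0.0384 and 0.00491). Serpinf2, the gene of the plasmin inhibitor alpha-2-antiplasmin, was lower in mWT mice at −0.31 (SE 0.108, adjusted p = 0.0496). In KO mice, Serpina10, the protein Z-dependent inhibitor of factor Xa, was lower at −0.39 (SE 0.0966, adjusted p = 0.00658) and Tfpi2, a Kunitz-type inhibitor of plasmin, was higher at 0.45 (SE 0.146, adjusted p = 0.0369) in males.

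**Figure D4:**
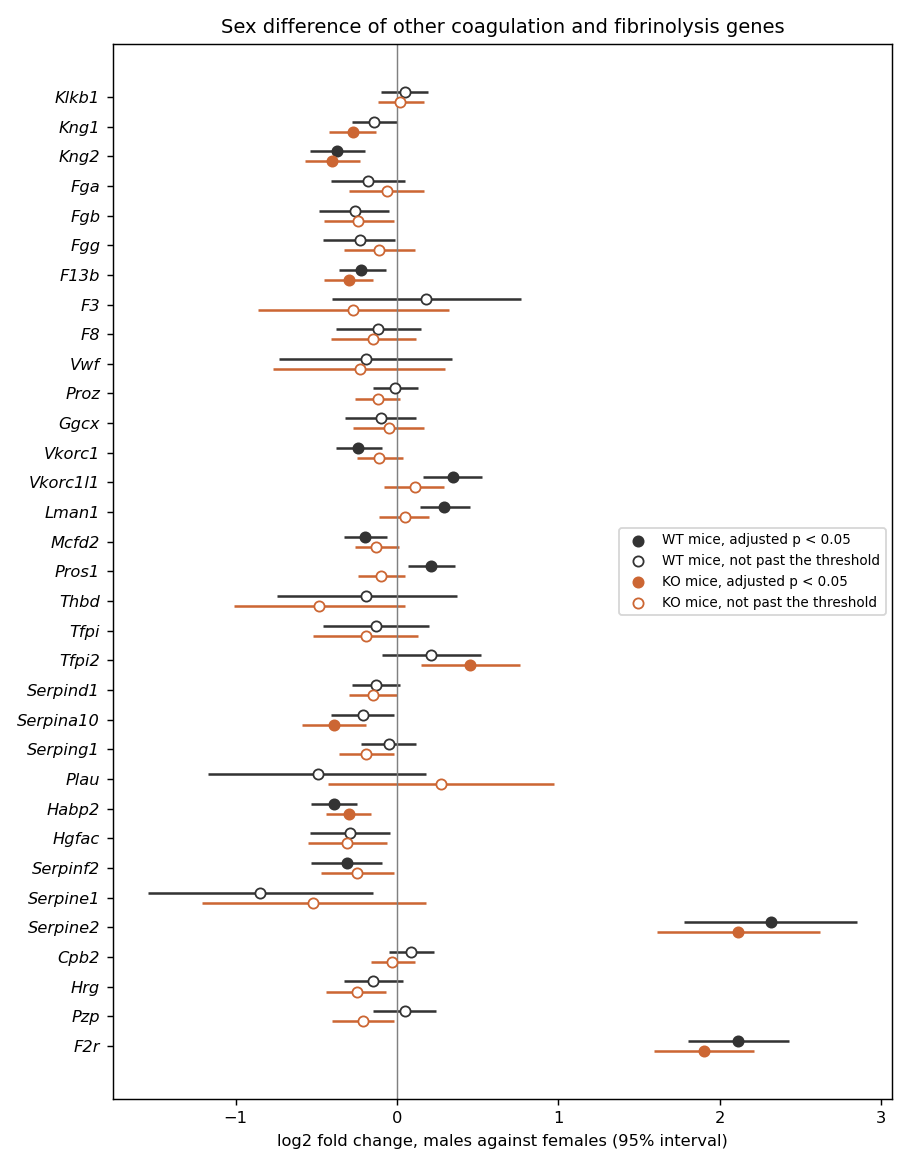
Log2 fold change of males against females with its 95% interval for the 33 other clotting and fibrinolysis genes tested, in WT (dark) and KO mice (orange), 6 against 6 mice each. Filled points have an adjusted p under 0.05. F2r and Serpine2 lie far to the right, at 1.90 to 2.32, and most other values lie between −0.50 and 0.50.

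Of 19 tested transcription factors of the liver, including Hnf4a and Cebpa, 3 differed between the sexes in WT mice and 3 in KO mice, or 15.8% each, near the 17.3% and 14.4% of all genes. Between KO and WT mice, 0 had an adjusted p under 0.05 in either sex, and in edgeR 1 in males and 0 in females had an unadjusted p under 0.05, against 10.6% and 4.87% of all genes. Cux2, a repressor known for its female expression in mouse liver, was at 0.0625 to 0.454 CPM (median 0.314) in mWT and 9.4 to 42.7 CPM (median 20.6) in fWT mice, and its log2 fold change of males against females was −6.30 (SE 0.5, adjusted p = 5.29e-09). In KO mice it was −7.50 (SE 0.552, adjusted p = 1.7e-09). Foxa3, a forkhead factor of hepatocytes, was higher in males at 0.61 (SE 0.167, adjusted p = 0.0124) in WT and 0.52 (SE 0.167, adjusted p = 0.0355) in KO mice. Onecut2 was lower in mWT mice at −0.38 (SE 0.132, adjusted p = 0.045). Esr1, the oestrogen receptor alpha, was lower in mKO than in fKO mice at −2.05 (SE 0.253, adjusted p = 4.97e-06). In WT mice Esr1 did not pass the threshold between the sexes. It was at 18.4 to 50 CPM (median 22.6) in mWT and 21.7 to 56.6 CPM (median 49.7) in fWT mice. Esr1 was also the gene with an unadjusted p under 0.05 between mKO and mWT mice. Its log2 fold change was −0.94 there (unadjusted p = 0.00111, adjusted p = 0.14 in edgeR) and 0.45 in females (adjusted p = 0.929). For the interaction of genotype and sex, 0 of the 19 had an adjusted p under 0.05 in edgeR. An unadjusted p under 0.01 was found for 1 of the 19, against 1.16% of all genes. The sex difference of Esr1 is therefore not shown to depend on the genotype.

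Over the 24 livers, the 10 genes were also compared with each other after the group means had been subtracted, so that sex and genotype do not enter. Of the 45 pairs, 33 had a positive Pearson correlation, with a median r of 0.42 and a range from −0.50 to 0.92. The highest value belonged to F2 and Proc and the lowest to F12 and F9. The neighbours F7 and F10 correlated with r = 0.77. F5 and F9 stood apart, with r of at most 0.42 with any of the other genes. These correlations moved with the GC content of the transcripts, which was lowest for F9 (39%) and highest for F12 (58.5%). How strongly expression in a library correlated with GC content differed from liver to liver, with values between −0.47 and 0.32. The median was 0.05 in mWT, 0.08 in mKO, 0.09 in fWT and −0.06 in fKO mice. The groups overlapped, but the highest fKO value was 0.05, against 0.30 to 0.32 in the other groups. The same measure was also taken after the group means had been subtracted. This second value correlated over the 24 livers with F9 at r = −0.80 and with F12 at r = 0.79. Its correlation was 0.75 with F10, 0.70 with F2 and 0.68 with Proc. After a curve for GC content was subtracted from each library, 39 of the 45 pairs were positive, the median r was 0.38 and the range ran from −0.18 to 0.87. F2 and Proc then had r = 0.87 and F7 and F10 r = 0.56. The largest shifts were in pairs with F9, from −0.50 to 0.33 with F12 and from −0.27 to 0.50 with F2. Correlations of F5 with the others lay between −0.42 and 0.42 before and between −0.18 and 0.53 after the curve was subtracted. All points share the same 24 libraries, and the values describe these livers.

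**Figure D5:**
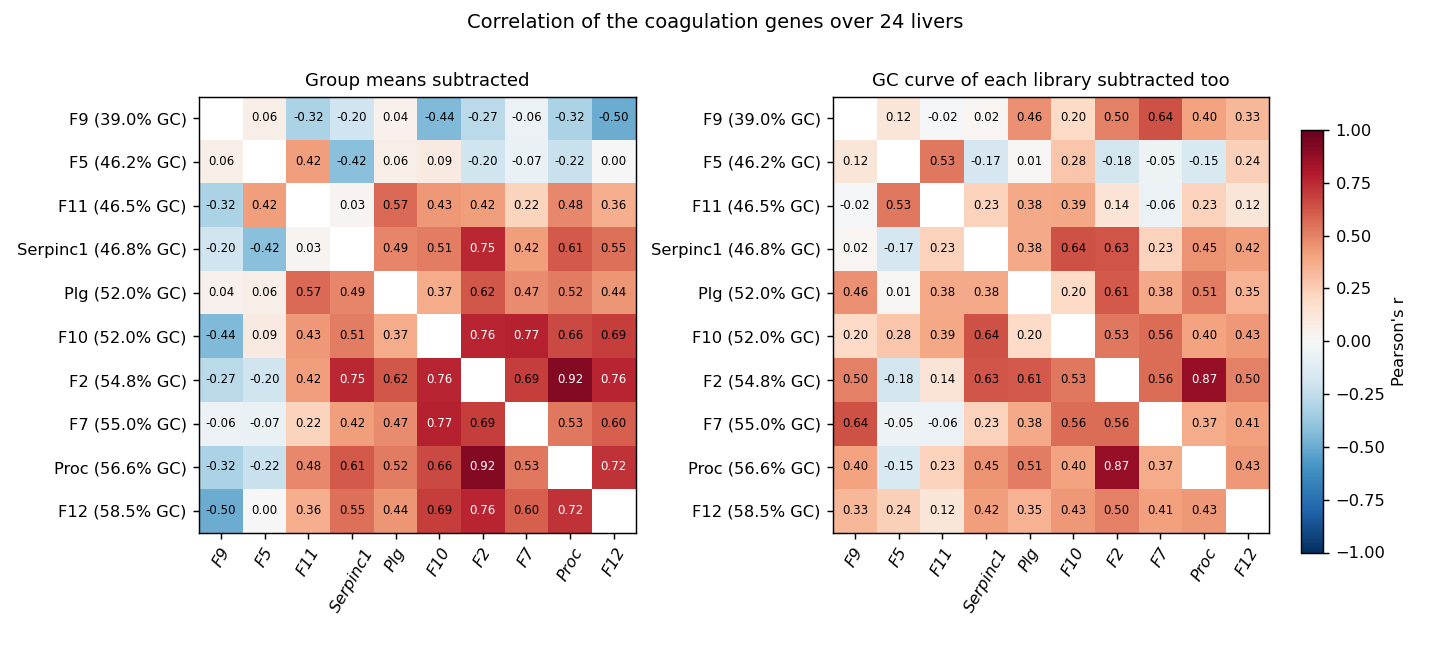
Pearson correlation of log2 CPM between the 10 genes over 24 livers, after group means were subtracted (left) and after a GC curve of each library was subtracted too (right), with genes ordered by transcript GC content. F9 is negative with most genes on the left, at −0.50 with F12, and mostly positive on the right, at 0.33 with F12.

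Among all genes tested, those with the most similar pattern over the 24 livers, again without group means and before the GC correction, were as described here. F2 was most like Proc (r = 0.92), Apoe (0.88) and 1300017J02Rik (0.87), and Proc was most like Rpl41 (0.92), F2 (0.92) and Rpl28 (0.91). F7 was most like Psmb8 (0.80), F10 (0.77) and Mrps18a (0.76), so 1 of its 3 nearest genes was among the 10. F10 was most like Os9 (0.90), Vtn (0.88) and Sil1 (0.86), and Plg was most like Serpinf2 (0.82), the gene of its plasma inhibitor, followed by Scarb1 (0.79) and Grb14 (0.77). F5 was most like Cpd, Pzp and Mug1 (0.76 each). Serpinc1 was most like Irf3 (0.83), Cd82 (0.82) and Isg20 (0.81). For F12 these genes were Mst1, Egln2 (0.89 each) and Pglyrp2 (0.86), for F11 Pnpla7, Arl8a and Cln3 (0.83 each), and for F9 Cfhr2 (0.91), Reps2 (0.90) and Rock1 (0.89).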

How the data were processed

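Hepatic RNA of 24 mice was analysed, 6 per group by the sample labels. Per the labels and the study's methods, the authors made stranded mRNA libraries, trimmed the reads (fastp 0.20), aligned them to GRCm38.p6 (STAR 2.7a) and obtained read numbers per Ensembl gene (featureCounts). The deposited values are raw counts. Annotation release and strand setting are not given in the sources used here. Symbols and coordinates came from GENCODE for GRCm38, which held 25712 of the 25746 genes.

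The filter kept 12330 genes that reached 0.66 CPM in 6 or more of the 24 libraries. After TMM scaling, 1 quasi-likelihood model with a mean per group was fitted to all libraries (R 4.3.3, edgeR 4.0.16), and p-values were Benjamini-Hochberg adjusted over all genes tested. Standard errors follow from the F statistic, and 95% intervals use the t quantile. DESeq2 1.42.0 was an alternative, beside other scalings, filters and fits and the omission of single mice. The procedure was tested on simulated data. Some single results are not reported here.

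The members and lists were chosen with earlier results of these data known. The 10 genes are all named. Of the other clotting genes, up to 8 called per comparison with the largest change and, for KO against WT, the 2 with the smallest p are named, as are called transcription factors and the 3 genes most correlated with each of the 10. Pros1 and Mcfd2 in WT mice, and Fgb and Tfpi2 between the genotypes, were named after their values were seen. Every pair of libraries of a group differed beyond sampling noise (lowest chi-square per gene 8.14). Plots used matplotlib 3.10.9 (Python 3.11.15).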

Additional observations from a re-analysis of the deposited data

Results flagged for a closer look

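Outliers were sought in 108 groups of 6 mice, from the 10 genes and the 17 other clotting genes named above, without Fgb. The mouse farthest from the others was tested by its gap to the nearest mouse against Dixon's 95% critical value. Chance passes this value in about 1 in 20 groups. It was passed by 4 values, 1 of them among the 10 genes. F2 was at 1245.4 CPM in mKO mouse 3, and the next lowest mKO mouse had 1446 CPM. Without this mouse, the log2 fold change of F2 in males was 0.14 (unadjusted p = 0.0504, adjusted p = 0.444 in edgeR). Fgg was at 4927.6 CPM in mKO mouse 1, above the next mouse at 3961 CPM. Lman1 was at 276.9 CPM in mWT mouse 1, below the next at 327.3 CPM. Pros1 was at 77.9 CPM in fKO mouse 6, above the next at 68.1 CPM.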

How the results depend on the processing

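Of 1600 values of the 10 genes under alternative settings, 1583 kept their direction where called and their side of the threshold, 13 lost and 4 gained an adjusted p under 0.05, and 0 called values changed sign. The count of 0 genes with an adjusted p under 0.05 between KO and WT mice, for each sex, the average and the interaction, held under every alternative run. An unadjusted p under 0.01 was reached by F9 with the GC correction in males (0.00355) and in the average (0.000836, and 0.00443 with the block added), and by F5 in 7 of 34 alternatives of the interaction. The sex difference of F7 (−0.61 to −0.51 in WT, −0.59 to −0.51 in KO mice), that of Serpinc1 in WT (−0.30 to −0.26) and that of F5 in KO mice (−0.31 to −0.21) passed the threshold under all 23 alternatives. Without single mice, 3 to 4 genes were called between the sexes in WT mice and 2 to 4 in KO mice. Same-numbered mice are different animals, and their correlations lay between −0.34 and 0.17, with own-number best for at most 1 of 6, so the numbers do not pair them. With the replicate number as a block, 3 genes were called in WT and 2 in KO mice, and Plg was not called (adjusted p = 0.0528 and 0.0789). With the block and the GC correction together, 2 were called in WT mice, where F2 had an adjusted p of 0.0604 and Plg 0.0816, and 2 in KO mice, where Plg had 0.0958. The cause was not tested. Over all genes, the count between KO and WT mice was 26 in males and 11 in females and moved to 139 and 18 with DESeq2, to 61 in males with the GC correction, to 48 with the 12 males alone, to 59 without mWT mouse 1 and 40 without mWT mouse 2, to 16 in females with the block, and to 2 and 0 without the Mup genes. The interaction moved from 1 to 11 with DESeq2, and the average from 21 to 50 with DESeq2, to 44 with the GC correction and to 1 without the Mup genes. Of all genes called between the sexes, 49.1% were higher in males in WT and 50.5% in KO mice, and 62% and 64.8% with the GC correction. What depth limits was not tested by drawing fewer reads.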
